A study of Mus musculus with 6 samples.

Results

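The genes described here are the UDP-glucuronosyltransferases (Ugt), the cytosolic sulfotransferases (Sult) and the carboxylesterases (Ces) of the mouse kidney. They were taken by name, as every gene symbol in the count tables that begins with Ugt, Sult or Ces followed by a digit. This gave 59 of 24422 genes, of which 21 were Ugt, 19 Sult and 19 Ces genes. Fold changes are given for the 30 genes with 60 or more reads summed over the 6 libraries. Ugt1a6b, with 60 reads, was just inside this limit, and Ces2a, with 49 reads, was just outside it.

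The enzymes of these families make small molecules easier to excrete. Glucuronosyltransferases, held in the membrane of the endoplasmic reticulum, attach a sugar acid to bilirubin, steroids, phenols and drugs, and sulfotransferases of the cytosol attach sulfate to phenols, catecholamines and sterols. Carboxylesterases split esters and amides, among them ester drugs and stored lipids. Liver is the best known site of all of these enzymes, and the proximal tubule of the kidney holds many of them beside the transporters that secrete their products.

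RNA was measured in whole kidneys of C57BL/6 mice at postnatal day 13, all on a diet with 220 ppm iron. The 3 Control kidneys are labelled wild type. The 3 TfR1 knockout kidneys carried a floxed transferrin receptor gene, Tfrc (Tfr1f/f), with the Six2Cre recombinase (SixCre in the genotype label), which is active in progenitors of the nephron but not of the collecting duct or stroma. The study describes deletion that was incomplete, with cells that kept the receptor in the tubules at this age, and the labels do not say whether the Control animals carried a floxed allele or what sex the animals were.

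Total counts were between 16591156 and 22898008 per library. The targeted gene itself, Tfrc, stood at 5534, 6485 and 3667 normalized counts in the Control libraries (here and throughout in the order of their replicate numbers) and at 6976, 4045 and 5898 in the knockout libraries, a difference that did not pass the test (DESeq2 adjusted p 0.853). Only some exons of the gene were floxed in the study, so counts over the whole gene do not measure the deletion. The labelled tissue was checked by its markers. The summed markers of podocytes and of each tubule segment were present in all 6 libraries, but single tubule markers were nearly absent from knockout libraries, such as Pvalb of the distal convoluted tubule at 0.994, 8.96 and 1.89 normalized counts. Control replicate 1 and TfR1 knockout replicate 3 also held transcripts of the adrenal cortex. The 8 markers of that tissue summed to 26203 and 3456 normalized counts in these libraries, against 179 to 400.5 in the other 4, so results are also given without both. The female transcript Xist was high (16704 to 27153 normalized counts) in Control replicates 1 and 3 and TfR1 knockout replicate 2. The Y-linked Ddx3y was high (1409.8 to 2347) in the other 3 libraries. Among these, Xist stood at 78.2 in Control replicate 2, 145 in TfR1 knockout replicate 1 and 1031 in TfR1 knockout replicate 3.

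The comparison asked which of these genes change in the kidney when the receptor is targeted in the nephron lineage. Of the 30 genes, 14 rose and 3 fell in TfR1 knockout kidneys, each by at least 2-fold. The genes that rose were 10 Ugt genes, Sult1d1 and 3 Ces genes, and the genes that fell were Ugt3a1, Ugt3a2 and Sult1c2. The 17 calls were made by DESeq2 at an adjusted p under 0.05, a threshold that 14.9% of all 16509 genes tested passed. Over all genes, 7.74% passed as higher and 7.18% as lower, and 4.41% and 4.46% did so at 2-fold. The limit of 60 reads lets in genes that are high in 1 group only, so the share of the 30 that passed is not a measure for all 59. Among all 59 genes, 33 had an adjusted p, and the only further gene past the threshold was Sult1e1, which was under 60 reads.

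edgeR's quasi-likelihood test passed 10 of the 17 genes, 8 higher and 2 lower, where 6.02% of 15308 genes passed, 2.48% as 2-fold higher and 2.31% as 2-fold lower. Leaving out both libraries with adrenal transcripts kept 13 of the 17, and the calls of Ugt2b5, Ugt1a6a, Ugt1a6b and Ugt2b38 were lost. In 20 of the 30 genes the values of the groups did not overlap, as in 33.7% of all genes tested. The 17 called genes were all among these 20. Their sign was therefore bound to be the same among the Xist-high libraries alone and among the Ddx3y-high libraries alone, which tests nothing further. Of all 30 genes, 26 had the same sign in both. The median log2 fold change was 1.78 for the 14 Ugt genes, 0.061 for the 8 Sult genes and 0.83 for the 8 Ces genes, beside 0.0071 for all genes tested. The limit on reads let in genes such as Ugt1a1 and Ugt1a9 mostly through their knockout libraries. Neither these medians nor the share without overlap is thus a measure for the whole families, and all genes tested met no such limit. Because whole kidneys were measured, fewer cells of a type and less RNA per cell cannot be told apart.

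**Figure D1:**
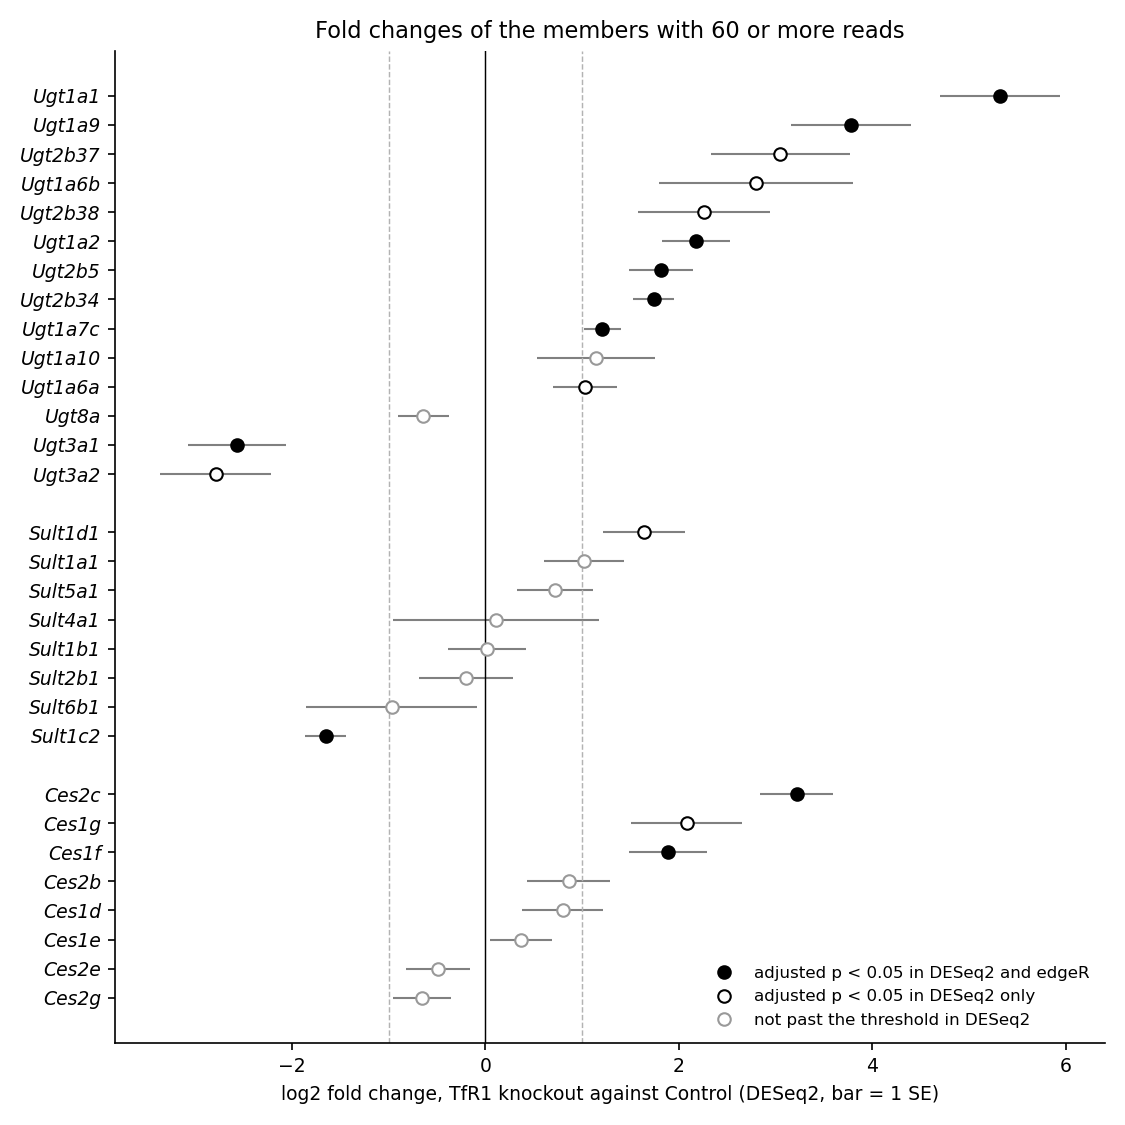
Log2 fold change of each of the 30 genes in TfR1 knockout against Control kidneys (horizontal axis), with bars of 1 standard error from DESeq2 and dashed lines at 2-fold. Filled points passed an adjusted p under 0.05 in DESeq2 and edgeR, open black points in DESeq2 only, and grey points did not pass in DESeq2. Ugt1a1 stands farthest to the right at 5.32 and Ugt3a2 farthest to the left at -2.79.

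The Ugt1 genes were examined first. They share 1 locus on chromosome 1 (mm9, 89951963 to 90116577, 165 kb), in which each gene has a promoter and a first exon of its own and is spliced to the same 4 final exons. The first exon encodes the part of the enzyme that binds the substrate, and the shared exons (90111619 to 90115572, 1311 bases in all) encode the part that binds the sugar donor. Of the 7 Ugt1a genes with 60 or more reads, 6 rose and Ugt1a10 did not pass the test.

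The 300 bases around the start of each Ugt1a gene are shown because these promoters are what the genes of the locus do not share. The sequences are those of RefSeq on the GRCm38.p6 build, plus strand, from 250 bases before to 50 after the gene's start. They are in lower case throughout, since capitals were kept for the motifs named after them, which none of the 6 held. From the first gene of the locus to the last, the windows are chr1:88055161-88055460, chr1:88070529-88070828, chr1:88094751-88095050, chr1:88134559-88134858, chr1:88200361-88200660 and chr1:88211709-88212008.
Ugt1a10: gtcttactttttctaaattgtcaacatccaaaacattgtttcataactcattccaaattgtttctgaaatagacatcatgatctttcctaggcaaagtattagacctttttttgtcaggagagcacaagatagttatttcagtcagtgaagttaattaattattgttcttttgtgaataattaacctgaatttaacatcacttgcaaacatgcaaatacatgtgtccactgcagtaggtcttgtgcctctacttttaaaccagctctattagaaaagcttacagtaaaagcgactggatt
Ugt1a9: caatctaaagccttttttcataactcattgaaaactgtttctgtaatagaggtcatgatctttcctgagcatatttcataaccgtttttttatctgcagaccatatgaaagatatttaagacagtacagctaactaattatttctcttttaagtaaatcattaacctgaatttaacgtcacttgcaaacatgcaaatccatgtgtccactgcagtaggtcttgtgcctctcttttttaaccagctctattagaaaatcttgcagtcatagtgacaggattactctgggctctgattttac
Ugt1a7c: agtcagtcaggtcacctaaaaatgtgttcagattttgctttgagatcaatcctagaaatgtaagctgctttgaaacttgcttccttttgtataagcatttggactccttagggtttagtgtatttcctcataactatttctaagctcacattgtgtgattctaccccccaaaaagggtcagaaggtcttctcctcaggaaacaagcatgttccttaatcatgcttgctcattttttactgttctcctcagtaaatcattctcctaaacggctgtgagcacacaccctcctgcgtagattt
Ugt1a6a: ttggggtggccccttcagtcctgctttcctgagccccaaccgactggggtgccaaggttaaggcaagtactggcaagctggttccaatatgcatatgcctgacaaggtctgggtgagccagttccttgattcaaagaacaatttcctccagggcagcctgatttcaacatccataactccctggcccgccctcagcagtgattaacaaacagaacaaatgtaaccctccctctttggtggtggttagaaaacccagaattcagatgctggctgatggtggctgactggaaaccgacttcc
Ugt1a2: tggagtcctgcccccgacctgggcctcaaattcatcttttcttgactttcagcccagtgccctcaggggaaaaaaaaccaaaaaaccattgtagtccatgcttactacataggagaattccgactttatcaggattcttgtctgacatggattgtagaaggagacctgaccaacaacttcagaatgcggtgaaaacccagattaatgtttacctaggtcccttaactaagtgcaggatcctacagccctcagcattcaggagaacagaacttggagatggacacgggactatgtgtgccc
Ugt1a1: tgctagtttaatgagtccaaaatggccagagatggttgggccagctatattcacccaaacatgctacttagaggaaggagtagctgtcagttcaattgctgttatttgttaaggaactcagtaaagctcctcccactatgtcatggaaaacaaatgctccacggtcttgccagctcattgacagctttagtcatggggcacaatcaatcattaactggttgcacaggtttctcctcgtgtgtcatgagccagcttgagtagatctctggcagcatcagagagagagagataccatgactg

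Short motifs of 3 regulators known to act on these families were searched on both strands. Of the 30 genes, 24 had a promoter entry, in 26 windows. No window held the antioxidant element TGACNNNGC, which 12.4% of all 32851 promoters of the same length held. The dioxin core GCGTG was in 5 windows, those of Ugt8a, Sult1b1 and Sult1d1 and both of Sult2b1 (32.4% of all promoters), and the hypoxia core ACGTG in 3, those of Ugt2b37, Ces2g and 1 of Sult2b1 (19.6%). None of these motifs was in a Ugt1a window shown above, which leaves out Ugt1a6b and Ugt1a5. A match of letters is a description and does not show that a factor binds there, and no match says only that these letters are not in the window.

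Ugt1a1 makes the enzyme that conjugates bilirubin. It had 10.7, 10 and 12.9 normalized counts in Control and 142, 883 and 318 in knockout libraries. Every knockout library was far above every Control library, and TfR1 knockout replicate 2 was the highest. The gene rose 40.0-fold (log2 fold change 5.32, SE 0.62, DESeq2 adjusted p 1.66e-15, edgeR adjusted p 0.0108). Without TfR1 knockout replicate 2 the log2 fold change was 4.37.

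Ugt1a9 was near the limit of detection in Control kidneys, at 7.42, 4.54 and 2.15 normalized counts, and stood at 40.8, 94.7 and 64.3 in knockout kidneys. The groups were well apart (log2 fold change 3.78, SE 0.62, DESeq2 adjusted p 9.22e-08, edgeR adjusted p 0.0124). Ugt1a6b was lower still, with 3.3, 0.909 and 4.31 normalized counts in Control and 12.9, 39.7 and 6.62 in knockout libraries. Its rise (log2 fold change 2.80, SE 1.00, DESeq2 adjusted p 0.0391) rested on few reads, was lost without any 1 Control library or TfR1 knockout replicate 2 and under total-count scaling, and was not tested by edgeR.

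Ugt1a2 had the highest counts of the locus, and was the leading Ugt gene by counts in the knockout kidneys. Its counts may hold reads of the shared exons. Control libraries held 1358, 798 and 594 normalized counts and knockout libraries 4574, 5031 and 2896. Each knockout library was more than any Control library, and the gene rose 4.54-fold (log2 fold change 2.18, SE 0.35, DESeq2 adjusted p 3.20e-08, edgeR adjusted p 0.0172). Ugt1a7c, at 377, 337 and 319.7 in Control and 668, 862 and 862 in knockout libraries, changed less but with little spread (log2 fold change 1.21, SE 0.19, DESeq2 adjusted p 4.13e-08, edgeR adjusted p 0.0107).

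Ugt1a6a, which encodes an enzyme for small flat phenols, had 66.8, 78.2 and 70.0 normalized counts in Control and 97.5, 183 and 158 in knockout libraries. The groups did not overlap, but the gene passed in DESeq2 (log2 fold change 1.03, SE 0.33, adjusted p 0.0164) and not in edgeR (adjusted p 0.0876). Its call was lost when any library other than TfR1 knockout replicate 1 was left out. Ugt1a10 had 308, 291 and 68.9 in Control and 356, 909.7 and 213 in knockout libraries. These values overlapped, with Control replicate 3 and TfR1 knockout replicate 3 the lowest of their groups, and the difference did not pass (log2 fold change 1.14, SE 0.61, DESeq2 adjusted p 0.211).

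The eighth gene of the locus, Ugt1a5, had at most 1 read in any library. Since its annotation holds the same 4 shared exons, reads in those exons were not added to every gene. How the counting step assigned them is not given in the sources used here. Ugt1a6a and Ugt1a6b are near-identical copies, and the division of reads between them is uncertain.

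**Figure D2:**
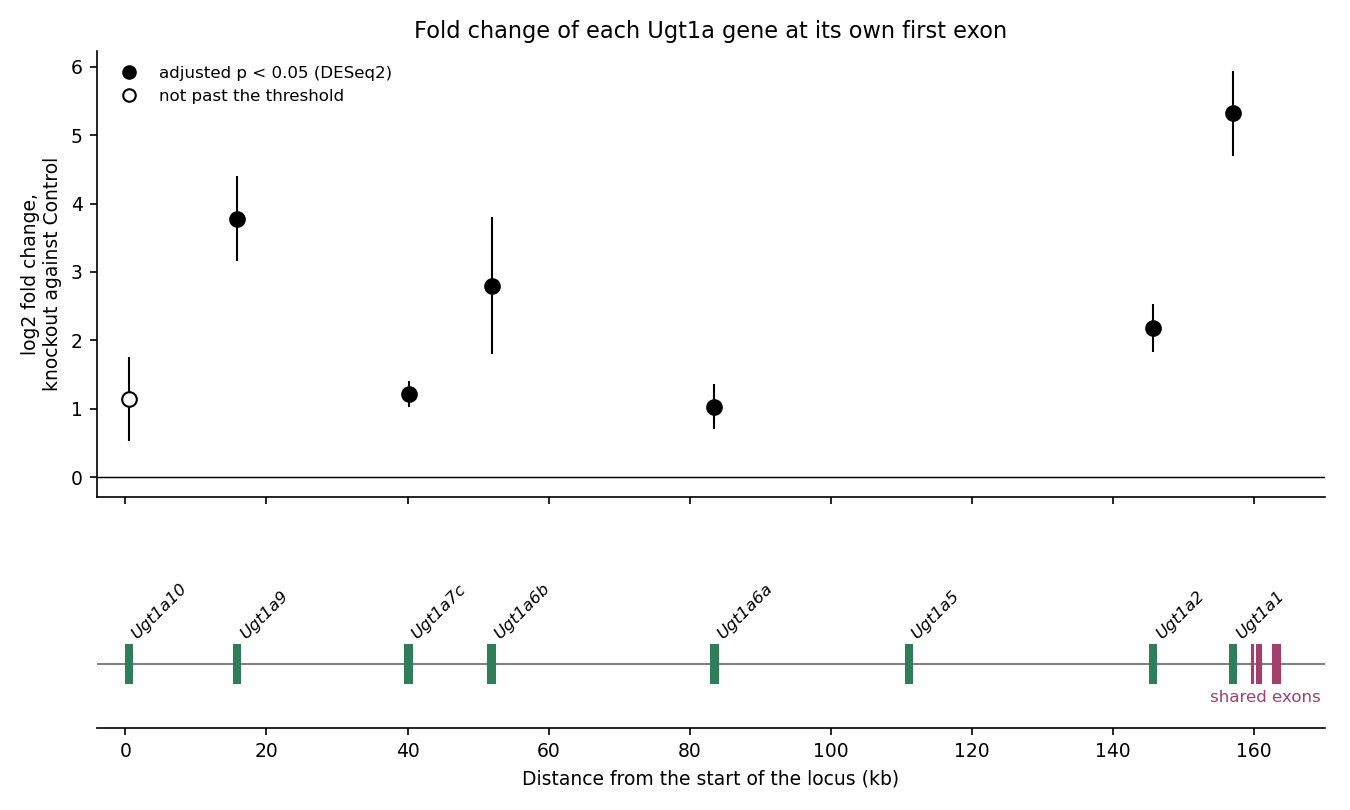
Top, log2 fold change of the 7 Ugt1a genes with 60 or more reads (vertical axis, bars of 1 standard error from DESeq2). Each gene is drawn at its longest exon before the 4 shared exons. The exon drawn for Ugt1a6b (938 bases) is itself shared in part, as that gene has 518 exon bases of its own. Bottom, the locus to scale in kb from its start, with the exons used for drawing in green and the 4 shared exons in purple. The gene nearest to the shared exons, Ugt1a1, has the largest value (5.32), and Ugt1a5 has too few reads to be drawn above.

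The Ugt2b genes, whose enzymes conjugate steroids, bile acids and drugs, lie in the cluster of Ugt2 genes on chromosome 5 (mm9, 87318792 to 87919896). All 4 with 60 or more reads rose, and no other Ugt2 gene had more than 14 reads in the 6 libraries together. Ugt2b34 (87318792 to 87335962) was the most abundant, with 789, 731 and 706 normalized counts in Control and 2029, 3076 and 2351 in knockout libraries. The Control libraries lay close to each other and every knockout library was above them all. It rose 3.35-fold (log2 fold change 1.74, SE 0.21, DESeq2 adjusted p 2.09e-14, edgeR adjusted p 0.00391).

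Ugt2b5 had 24.7, 27.3 and 31.2 normalized counts in Control and 91.5, 88.3 and 113 in knockout libraries, again with no overlap and a small spread (log2 fold change 1.82, SE 0.33, DESeq2 adjusted p 1.42e-06, edgeR adjusted p 0.017). Without Control replicate 1 and TfR1 knockout replicate 3 together the log2 fold change was 1.62 and did not pass (adjusted p 0.162).

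Ugt2b37 and Ugt2b38 showed another pattern among the knockout libraries. Ugt2b37 had 9.89, 12.7 and 29.1 normalized counts in Control and 247, 29.4 and 149 in knockout libraries. Ugt2b38 had 13.2, 17.3 and 20.5 in Control and 161, 24.3 and 57.7 in knockout libraries. In both genes TfR1 knockout replicate 2, the knockout library with high Xist, stood at or just above the highest Control library, and the knockout libraries with high Ddx3y stood far above. The log2 ratio of knockout to Control was 0.58 for Ugt2b37 and 0.52 for Ugt2b38 among the Xist-high libraries, and 3.90 and 2.63 among the Ddx3y-high libraries. With 2 Control and 1 knockout libraries on the first side and 1 and 2 on the other, the difference between the sides was not tested. TfR1 knockout replicate 3, on the Ddx3y-high side, also held 1031 normalized counts of Xist.

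Over all 6 libraries the log2 fold change was 3.05 for Ugt2b37 (SE 0.72, DESeq2 adjusted p 4.89e-04, edgeR adjusted p 0.0649) and 2.26 for Ugt2b38 (SE 0.68, DESeq2 adjusted p 0.00954, edgeR adjusted p 0.0943). Neither passed in edgeR. Without TfR1 knockout replicate 1 the values were 2.39 (adjusted p 0.0186) and 1.29 (adjusted p 0.141), and without Control replicate 3 that of Ugt2b37 was 3.64. The call of Ugt2b38 was also lost without Control replicate 1 or Control replicate 2. The Ugt2b genes are similar in sequence, so the division of reads among them is uncertain.

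**Figure D3:**
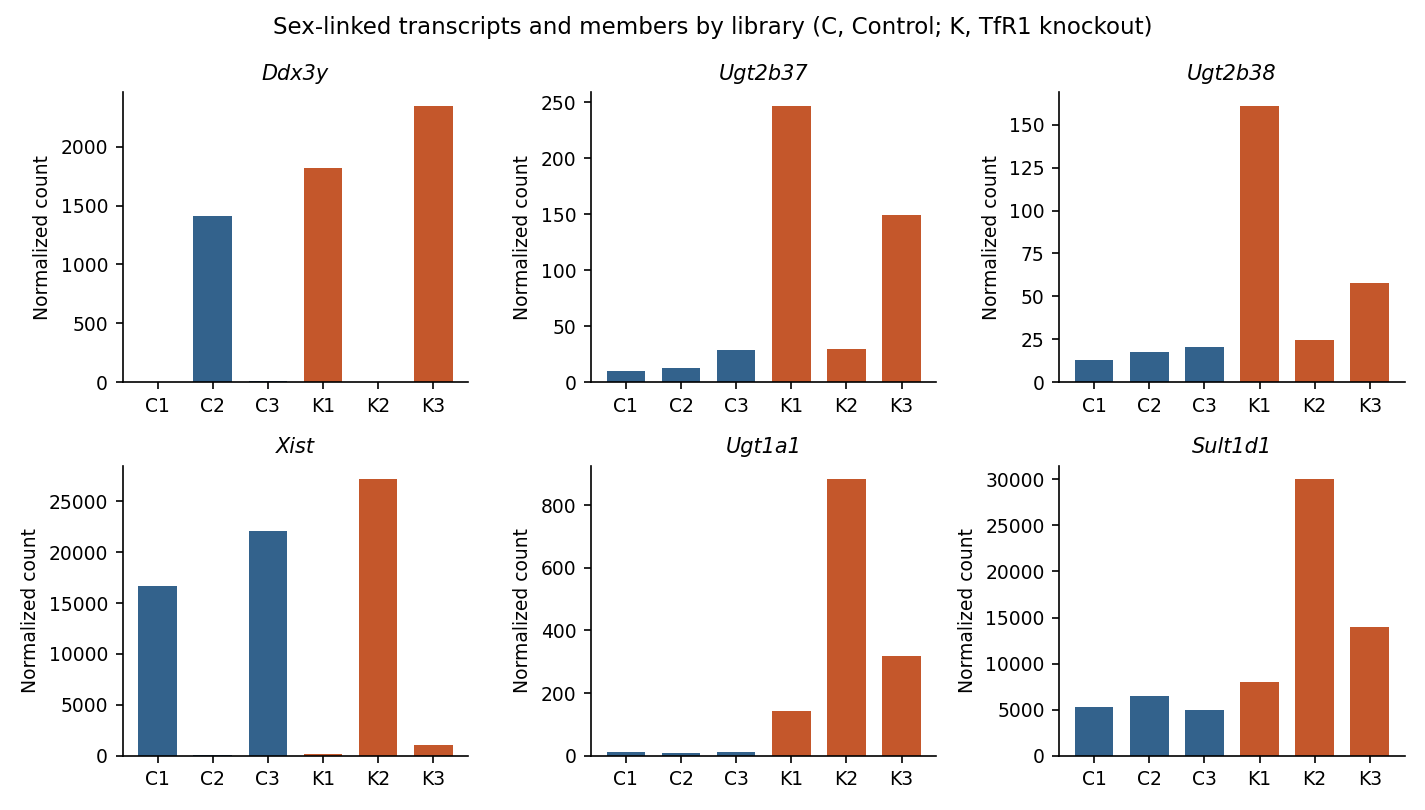
Normalized counts (vertical axes, each from 0) of the sex-linked transcripts Ddx3y and Xist and of 4 genes of these families in the 3 Control (C1 to C3, blue) and 3 TfR1 knockout (K1 to K3, orange) libraries, 1 bar per library. Ugt2b37 and Ugt2b38 are highest in K1 and K3, where Ddx3y is high, and Ugt1a1 and Sult1d1 are highest in K2, where Xist is high.

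The Ugt3 genes went the other way. Enzymes of this family are known to use sugars other than glucuronic acid. Ugt3a1 and Ugt3a2 lie side by side on chromosome 15 (mm9, 9209584 to 9244787 and 9265305 to 9300710), and both fell. Ugt3a2 had 3248, 3910.2 and 1119 normalized counts in Control and 571, 507 and 116 in knockout libraries. Control replicate 3 was the lowest of its group and TfR1 knockout replicate 3 the lowest of all, and the groups did not overlap. The gene was 6.94-fold lower (log2 fold change -2.79, SE 0.57, DESeq2 adjusted p 3.75e-05), and edgeR's adjusted p was 0.051, just outside the threshold.

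Ugt3a1 had 196, 249 and 92.6 normalized counts in Control and 38.8, 38.4 and 14.2 in knockout libraries, in the same order of libraries within the knockout group as Ugt3a2. It was 5.93-fold lower (log2 fold change -2.57, SE 0.51, DESeq2 adjusted p 1.59e-05, edgeR adjusted p 0.0323).

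Ugt8a encodes the enzyme that joins galactose to ceramide, the first step toward the sulfatide lipids of kidney and myelin. It had 403, 461 and 296 normalized counts in Control and 288, 247 and 209 in knockout libraries. The groups did not overlap, but the difference did not pass the test (log2 fold change -0.64, SE 0.26, DESeq2 adjusted p 0.0717). It did pass without Control replicate 3, without TfR1 knockout replicate 1, and under total-count or upper-quartile scaling.

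The make-up of the Ugt family differed between the groups. Ugt3a2 took 33.2 to 56.4% of the summed Ugt counts in Control libraries and 1.54 to 6.12% in knockout libraries. Ugt1a2 took 11.5 to 19.9% in Control and 38.4 to 49.0% in knockout libraries, and Ugt2b34 took 10.5 to 21.0% and 21.7 to 31.2%. The sum over all 21 Ugt genes was 6816, 6929 and 3369 normalized counts in Control and 9331, 12021 and 7533 in knockout libraries. Every knockout sum was above every Control sum, and the ratio of means was 1.69 (two-sided exact permutation p 0.1, n = 3 each, the smallest p that this design allows). Per kb of exon not shared with another gene, the normalized counts of Ugt1a2 were 1019 ± 439 in Control and 4629.9 ± 1249 in knockout kidneys (mean ± SD, n = 3). On the same scale Ugt3a2 had 889 ± 470.1 and 128 ± 79.3, Ugt2b34 172 ± 9.88 and 576 ± 124, and Ugt1a1 12.3 ± 1.67 and 490.3 ± 424. Thus, on this scale, Ugt3a2 and Ugt1a2 lay within each other's spread in Control kidneys, and Ugt1a2 was above Ugt3a2 in knockout kidneys.

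**Figure D4:**
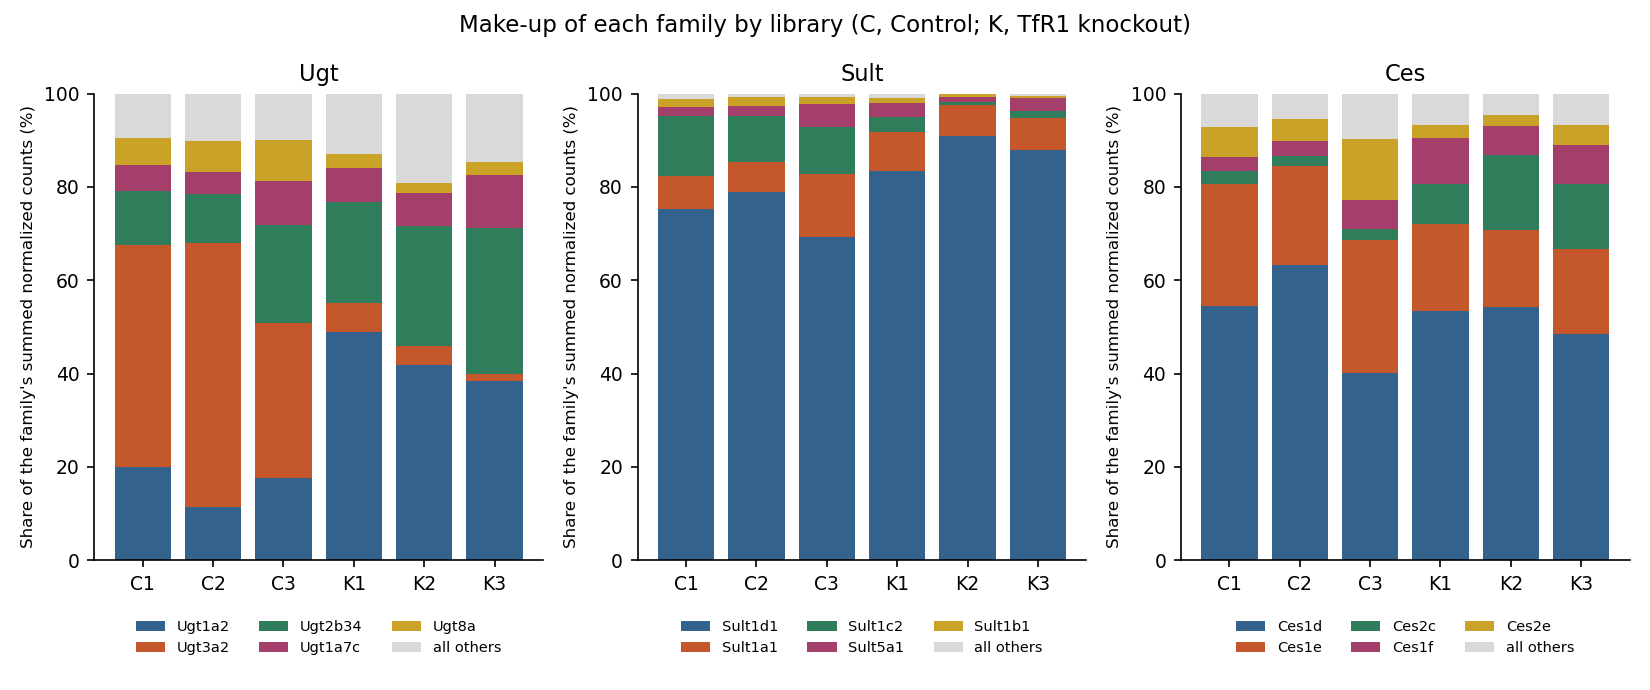
Share of each family's summed normalized counts (vertical axis, %) taken by its 5 most abundant genes and by all others, in the 3 Control (C1 to C3) and 3 TfR1 knockout (K1 to K3) libraries. Ugt3a2 shrinks from 33.2 to 56.4% in Control to 1.54 to 6.12% in knockout libraries, and Sult1d1 leads the Sult genes in all 6.

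Sult1d1 led the sulfotransferases. Its enzyme sulfates dopamine and other catecholamines and is abundant in mouse kidney, and its gene lies on chromosome 5 (mm9, 87983670 to 87998052) between Sult1b1 and Sult1e1. It had 5297, 6482 and 4911 normalized counts in Control and 8037, 30002 and 14015 in knockout libraries. The knockout libraries were all above the Control libraries but were spread widely, with TfR1 knockout replicate 2 the highest. The gene rose 3.12-fold (log2 fold change 1.64, SE 0.42, DESeq2 adjusted p 0.0018), and did not pass in edgeR (adjusted p 0.0736). Without TfR1 knockout replicate 2 the log2 fold change was 0.99.

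Sult1c2, a phenol sulfotransferase gene on chromosome 17 (mm9, 53968962 to 53985664), was the only Sult gene that fell. Control libraries held 914, 808 and 715 normalized counts and knockout libraries 298, 251 and 226. Both groups were tight and far apart. The gene was 3.15-fold lower (log2 fold change -1.65, SE 0.21, DESeq2 adjusted p 1.43e-13, edgeR adjusted p 0.00499).

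Sult1a1, which encodes the general phenol sulfotransferase, had 497, 537 and 966 normalized counts in Control and 811, 2163 and 1089 in knockout libraries. The groups overlapped through Control replicate 3, and the difference did not pass (log2 fold change 1.02, SE 0.41, DESeq2 adjusted p 0.0738). It did pass without Control replicate 3 or TfR1 knockout replicate 1, and with the Xist level as a covariate (adjusted p 0.0159). A short part of its exons is shared with Ccdc101.

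The other 5 Sult genes with 60 or more reads did not pass. Their log2 fold changes were 0.72 (SE 0.39) for Sult5a1, 0.11 (SE 1.07) for Sult4a1, 0.017 (SE 0.40) for Sult1b1, -0.20 (SE 0.49) for Sult2b1, whose enzyme sulfates cholesterol, and -0.97 (SE 0.88) for Sult6b1. The values of the groups overlapped in all 5. Sult4a1 and Sult6b1 had only 69 and 89 reads in all 6 libraries. Sult5a1 passed when Control replicate 3 was left out.

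Sult1d1 took 69.2 to 78.9% of the summed Sult counts in Control and 83.4 to 90.9% in knockout libraries, and Sult1c2 took 9.83 to 13.0% and 0.76 to 3.1%. The Sult sum was 7046, 8220.4 and 7092 normalized counts in Control and 9638, 33005 and 15918 in knockout libraries. It therefore followed Sult1d1, with a ratio of means of 2.62 (two-sided exact permutation p 0.1, n = 3 each) that was 1.71 without TfR1 knockout replicate 2. Per kb of exon, Sult1d1 had the highest group mean of the 30 genes in both groups, at 2262 ± 333 in Control and 7056 ± 4618 in knockout kidneys (normalized counts, mean ± SD, n = 3). In TfR1 knockout replicate 1, however, Ugt1a2 was above it, at 5083 beside 3268 per kb of exon not shared with another gene. For Ugt1a2 this is 900 of 2211 exon bases. Its count may hold reads of the shared exons, so this ranking depends on the scale.

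Among the carboxylesterases, Ces2c had the largest change. Ces2 enzymes hydrolyse drug esters and acylglycerols, and the gene lies in a cluster on chromosome 8 (mm9, 107257903 to 107544310; Ces2c 107370968 to 107378383). It had 52.8, 51.8 and 35.5 normalized counts in Control and 389.8, 651 and 274 in knockout libraries. All knockout libraries were well above the Control libraries, and the gene rose 9.35-fold (log2 fold change 3.22, SE 0.38, DESeq2 adjusted p 3.77e-15, edgeR adjusted p 0.00566). Its neighbours did not pass, with log2 fold changes of 0.86 (SE 0.43) for Ces2b, -0.49 (SE 0.33) for Ces2e and -0.66 (SE 0.30) for Ces2g. The values of Ces2b and Ces2g nevertheless did not overlap between the groups, in opposite directions.

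The Ces1 genes form a second cluster on chromosome 8 (mm9, 95544113 to 95861207), and their enzymes hydrolyse stored triacylglycerol and many drugs. Ces1f had 61.8, 79.1 and 90.4 normalized counts in Control and 443, 255 and 162 in knockout libraries. The groups were apart, with TfR1 knockout replicate 1 the highest (log2 fold change 1.89, SE 0.40, DESeq2 adjusted p 8.11e-05, edgeR adjusted p 0.0377). limma-voom did not pass it (adjusted p 0.0573).

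Ces1g had 18.1, 16.4 and 20.5 normalized counts in Control and 140.2, 47.3 and 43.5 in knockout libraries, with the same library highest. It rose in DESeq2 (log2 fold change 2.08, SE 0.57, adjusted p 0.00374) and did not pass in edgeR (adjusted p 0.0641). Without TfR1 knockout replicate 1 its log2 fold change was 1.31.

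Ces1d and Ces1e were the most abundant carboxylesterase genes, and neither passed. Ces1d, whose enzyme is a triacylglycerol hydrolase, had 1074, 1529.7 and 603 normalized counts in Control and 2430.4, 2208 and 954 in knockout libraries (log2 fold change 0.80, SE 0.42, DESeq2 adjusted p 0.201). Ces1e had 517, 514 and 427 in Control and 850.2, 669 and 362 in knockout libraries (log2 fold change 0.37, SE 0.32, DESeq2 adjusted p 0.493). In both genes TfR1 knockout replicate 3 fell among or below the Control libraries, and Ces1d passed when that library was left out.

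The Ces sum was 1973, 2419 and 1501 normalized counts in Control and 4549.6, 4063 and 1971 in knockout libraries. TfR1 knockout replicate 3 lay at the level of Control, and the ratio of means was 1.8 (two-sided exact permutation p 0.3, n = 3 each). Ces2c took 2.14 to 2.67% of this sum in Control and 8.57 to 16.0% in knockout libraries, whereas the share of Ces1d overlapped (40.2 to 63.2% and 48.4 to 54.3%). The Ces1 and Ces2 genes are similar to each other in sequence, and unique counting may leave out part of their reads.

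**Figure D5:**
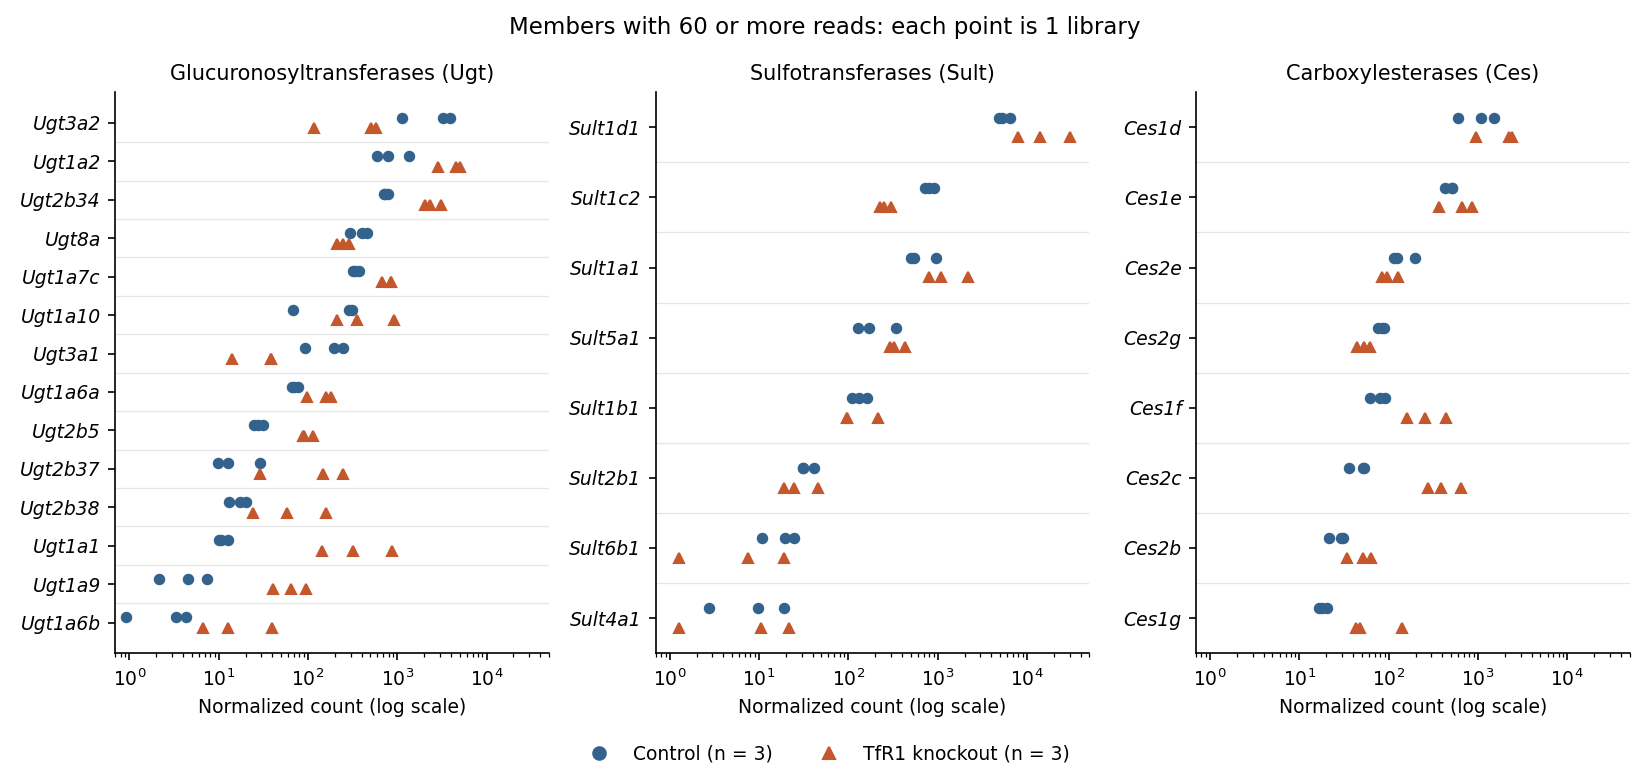
Normalized counts (horizontal axes, log scale) of the 30 genes with 60 or more reads, with 1 point per library for the 3 Control (circles) and 3 TfR1 knockout (triangles) kidneys. Genes are ordered by their Control mean within each family. Ugt3a2 and Sult1c2 show triangles to the left of every circle, and Ugt1a1 and Ces2c show them far to the right.

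The remaining 29 genes had fewer than 60 reads in all. No read was counted for 8 of them, Sult1c1, Sult2a3, Sult2a4, Sult2a5, Sult3a1, Ces3b, Ugt2a1 and Ugt2a2. Sult1e1, the estrogen sulfotransferase gene, had 0, 1 and 2 reads in Control and 4, 18 and 22 in knockout libraries. Ces1c, whose enzyme is secreted into mouse plasma, had no read in any Control library and 25, 4 and 0 reads in knockout libraries, and Sult2a1 had none in Control and 11, 1 and 1 in knockout libraries. The reads of the latter pair thus came mostly from TfR1 knockout replicate 1.

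Ces2f, Ces2d-ps, Ugt2b35, Ces5a, Ugt2b36 and Ces1b had between 5 and 16 reads. Ugt2b1, Ugt2a3, Ugt1a5, Sult2a8, Sult2a2, Sult2a6, Sult2a7, Ces1a, Ces2h, Ces3a and Ces4a had at most 4. No difference could be read from these genes at this depth. The last gene under 60 reads, Ces2a, had 21 reads in Control and 28 in knockout libraries.

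Markers of other cell types were set beside these results. Of 8 liver genes, 5 passed as higher in knockout kidneys, and their sum was 5309.9 to 6044 normalized counts in Control and 5619 to 18859.7 in knockout libraries, and none of the 8 stayed at 3 or fewer reads throughout, although Cps1 was at 0 in Control replicate 3. Albumin (Alb) stood at 433, 371 and 67.2 in TfR1 knockout replicates 1 to 3, and at 28.0, 15.5 and 14.0 in the Control libraries. Ttr made up most of the liver sum, at 3164 to 4815 in Control and 4038 to 15134 in knockout libraries. Apoa2, Serpina1a and Fgb did not pass (log2 fold changes -0.78, -0.95 and 0.47). Among the genes under 60 reads, the liver genes Ugt2b1 and Ces3a had at most 2 reads and 1 read in any library. No read was counted for Ces3b. Ces1c and Sult2a1 had 25, 4 and 0 reads and 11, 1 and 1 reads in the knockout libraries, and none in Control. Ugt2b36 had 1, 0 and 0 reads in Control and 5, 2 and 0 in knockout libraries. Ces1b had 0, 0 and 1 reads in Control and 4, 0 and 0 in knockout libraries. Of 7 macrophage genes, 5 passed as higher (2272 to 3593 and 6617 to 8121 normalized counts). Of 10 genes of the first proximal segments (S1 and S2), 5 passed as lower (59699 to 110583 and 47181 to 70463), and of 8 genes of the last segment (S3), Slc5a10 passed as higher and Slc7a13 as lower (14844 to 42706 and 34399.6 to 67729). Beyond the proximal tubule, all 4 markers of the thick ascending limb passed as lower (summed levels 45672 to 93083 in Control and 13059 to 24875 in knockout libraries), as did all 3 of the distal convoluted tubule (11272 to 22529 and 736 to 1783). Of 4 collecting duct markers, 2 passed as higher (5935 to 10900.1 and 24158 to 59738), and in these 3 sums the groups did not overlap. None of 4 podocyte markers passed (9960 to 15422 and 13859 to 16648), and of 8 fat markers 1 passed in each direction (10415 to 18564 and 12256 to 15143). The part of these cell types in the changes of the Ugt, Sult and Ces genes was not tested.

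The genes around these enzymes were compared through lists. In DESeq2, 14.9% of all genes tested passed, and the count of each list below stands beside that share. The lists were not tested as sets. The glucuronosyltransferases need UDP-glucuronic acid. Of 13 genes for its supply, transport and reversal, Pgm1 was the only one that passed (log2 fold change 0.74, SE 0.17, DESeq2 adjusted p 3.81e-04, edgeR adjusted p 0.0323), and the list's median was 0.19. Without both libraries with adrenal transcripts no gene of this list or of the sulfation list passed in DESeq2 (1 and 2 genes at an unadjusted p under 0.05). Ugdh, which makes the sugar acid itself, had 1199, 1139 and 1154 normalized counts in Control and 1275, 2204 and 1798 in knockout libraries, and did not pass (log2 fold change 0.60, SE 0.24, DESeq2 adjusted p 0.0694).

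Sulfotransferases need sulfate in its activated form. Of 16 genes tested for its uptake, activation and removal, Sulf2 rose and the tubule sulfate transporter genes Slc13a1 and Slc26a1 fell in DESeq2 (median of the list -0.049). None passed in edgeR or limma-voom, and 5 had an unadjusted p under 0.05 in edgeR. Slc13a1 had 2594, 3023 and 2456 normalized counts in Control and 1942, 641 and 335 in knockout libraries (log2 fold change -1.47, SE 0.52, DESeq2 adjusted p 0.038, edgeR adjusted p 0.156). Slc26a1 had 1269.8, 1312 and 570.5 in Control and 678, 205 and 201 in knockout libraries (log2 fold change -1.54, SE 0.51, DESeq2 adjusted p 0.023, edgeR adjusted p 0.129). Both calls depended on single libraries, being held in 1 and 2 of the 6 fits that left out a library, and without TfR1 knockout replicate 1 the log2 fold changes were -2.47 and -2.37. The call of Sulf2 was held in 3 of these fits. The enzymes that activate sulfate, Papss1 and Papss2, did not pass (log2 fold changes -0.51 and 0.43).

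Of 17 other esterase and hydrolase genes tested, Pnpla2, the lipase that starts the breakdown of stored fat, rose (log2 fold change 1.29, SE 0.26, DESeq2 adjusted p 3.74e-05). The epoxide hydrolase genes Ephx1 and Ephx2 rose by 0.74 and 0.70 (log2), Ephx2 not past the threshold in edgeR and in only 1 of the 6 fits that left out a library. Aadac, which encodes a microsomal esterase, fell from 2942 ± 359 to 864 ± 240.4 normalized counts (mean ± SD, n = 3), a log2 fold change of -1.77 with SE 0.26 (DESeq2 adjusted p 8.75e-10, edgeR adjusted p 0.00839). The median of this list was 0.12.

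Of 21 genes tested on a list of receptors and other factors known to control these enzymes, 5 passed in DESeq2, beside 14.9% of all genes. Ppara and Nfe2l2 rose (log2 fold changes 1.81 and 0.50) and Ahrr, Esr1 and Cux2 fell (-2.50, -1.89 and -0.88), whereas edgeR passed only Ahrr and Esr1. Without TfR1 knockout replicate 2 the log2 fold change of Ppara was 1.02. The calls of Nfe2l2 and Cux2 were held in 1 and 2 of the 6 fits that left out a library. The list's median was 0.057.

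Of 18 known targets of those receptors, 7 rose and 2 fell in DESeq2, and the median was 0.86. Cyp2b10, a target of the receptor CAR, had 0.825, 3.64 and 3.23 normalized counts in Control and 135, 168 and 140 in knockout libraries (log2 fold change 5.89, SE 0.60, DESeq2 adjusted p 2.13e-20, edgeR adjusted p 0.00202). The gene of CAR itself, Nr1i3, did not pass (log2 fold change -1.07, SE 0.43, DESeq2 adjusted p 0.077). Of 7 Nrf2 targets, Nqo1, Srxn1 and Txnrd1 rose by 1.72, 1.24 and 1.01 (log2), whereas the log2 fold changes of Gclc (1.03, DESeq2 adjusted p 0.0594), Hmox1 (0.33), Gsta4 (0.32) and Gclm (-0.56) did not pass. Of 5 PPAR alpha targets, Cyp4a14, Cyp4a10 and Acot1 rose by 2.77, 1.51 and 1.15 (log2), and Pdk4 (2.48, DESeq2 adjusted p 0.0816) and Cpt1a (0.72, DESeq2 adjusted p 0.0798) did not pass. TfR1 knockout replicate 2 was the highest library in all 5, and without it the log2 fold changes of Cyp4a14, Cyp4a10 and Acot1 were 2.00, 1.01 and 0.69. Acot1 then lost its call, which it held in 2 of the 6 fits that left out a library. Cyp1a1, the standard target of the dioxin receptor, fell (log2 fold change -3.18, SE 1.11, DESeq2 adjusted p 0.0322) at 5.38 to 21.8 normalized counts in Control and 0 to 2.98 in knockout libraries. Cyp3a13 also fell (-1.41), and both calls depended on single libraries, being held in 2 and 1 of those fits. edgeR passed 5 of the rises and neither fall, with Cyp1a1 not tested by it.

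Conjugates leave the tubule cell through transporters. Of 18 genes for conjugate and organic anion transport, Abcc2 (log2 fold change 1.54), Abcc4 (0.77) and Slc22a6 (1.79) rose, and Abcc6 (-2.12) and Slc51b (-1.36) fell in DESeq2. All but Slc51b passed in edgeR as well, and Slc51b lost its call without Control replicate 2. Slc22a6, which brings organic anions into the proximal tubule cell from the blood, had 3396, 3486 and 1198 normalized counts in Control and 10343, 10197 and 7422 in knockout libraries. Abcc2, which exports glucuronides at the luminal side, had 1191, 774 and 574 in Control and 2304, 2912 and 2169 in knockout libraries. The groups did not overlap in either gene, and the median of the list was -0.013.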

How the data were processed

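The authors sequenced TruSeq poly-A libraries as single-end reads, trimmed them (Trimmomatic), aligned them to mm9 (TopHat 2.0.11), kept unique alignments and deposited raw counts per gene from HTSeq, without normalization. The HTSeq mode and annotation are not given in the sources used here. Groups came from the sample labels. The genes and lists described here were chosen with earlier results of these data known, and support nothing independently.

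Raw counts of 24422 genes were tested with DESeq2 1.42.0 (R 4.3.3, Wald test, median-ratio size factors, Benjamini-Hochberg adjustment over the 16509 genes with an adjusted p, lowest mean count tested 3.51), after the study's use of DESeq2 at an adjusted p under 0.05 and 2-fold. Folds are unshrunken, and normalized counts are counts divided by size factors. Beside it stood edgeR 4.0.16 (quasi-likelihood test, TMM) and limma 3.58.1 (voom). Other alternatives were 3 other scalings, filters on low counts, outlier filtering off, the replicate number as a block, Xist as a covariate, each library left out and other read limits. Chosen after seeing the data were the omission of both libraries with adrenal transcripts and the alternatives for the lists. All genes with 60 or more reads are named, with values in every library for called genes and the 3 most abundant of each family. Of the lists, genes past the threshold are named. Ugdh, Papss1, Papss2, Nr1i3, Gclc, Gclm, Hmox1, Gsta4, Cpt1a, Pdk4 and Pvalb were named after their values were seen. So were the liver markers Alb, Cps1, Ttr, Apoa2, Serpina1a and Fgb, and the genes under 60 reads set beside them. Summed counts were compared by exact permutation over libraries.

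Positions of 57 of the 59 genes came from the GENCODE annotation of mm9, matched by symbol, and promoters from RefSeq (GRCm38.p6). No pair of libraries agreed within counting noise. The replicates are separate samples by the labels, and 3 per group limit the precision. The code was tested on simulated counts.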

Additional observations from a re-analysis of the deposited data

How the results depend on the processing

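The number of genes past the threshold depended most on the test. edgeR passed 10 and limma-voom 9 of the 30 genes against 17 in DESeq2, with 8 and 7 instead of 14 higher. Under the other settings that used all 6 libraries it stayed between 16 and 19, and over the 6 fits that left out 1 library between 14 and 18. The median of the Ugt genes was 1.67 under total-count scaling, which shifted the median of all genes by -0.104, and ran from 1.60 to 1.81 over these 6 fits. That of the Sult genes ran from -0.22 (without TfR1 knockout replicate 1) to 0.27, and was 0.37 with a limit of 120 reads. Of 507 values for single genes over all alternatives, 445 kept their side of the threshold and direction, 32 lost and 13 gained a call, and 17 changed sign.

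The changes of sign were in genes that did not pass. Sult1b1 was at -0.0012 in edgeR, -0.13 in limma-voom, -0.012, -0.12 and -0.040 under TMM, total-count and upper-quartile scaling, -0.065 with the replicate block, -0.0086 with Xist and -0.48 to 0.22 with 1 library left out. Sult4a1 was at -0.10 in limma-voom, -0.12 with the block, -0.13 with Xist and -0.81 to 0.86 with 1 library left out. Sult2b1 ran from -0.65 to 0.028 with 1 library left out, and was 0.067 without both libraries with adrenal transcripts.

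For the lists, edgeR and limma-voom each passed 0 sulfation genes (against 3), 2 receptor genes (against 5) and 5 receptor targets (against 9). Xist as a covariate gave 2 glucuronidation genes (against 1). Without both libraries with adrenal transcripts the counts were 0 for glucuronidation, 0 for sulfation, 2 for other esterases (against 4), 2 for receptors and 3 for transport (against 5). With 1 library left out the ranges were 1 to 2 glucuronidation genes, 4 to 8 transport genes, 3 to 6 other esterase genes, 6 to 12 receptor targets, 0 to 4 sulfation genes and 3 to 6 receptor genes. The cause was not tested.

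The labels do not say whether the replicate numbers mark pairs. Libraries with the same number correlated in their deviations from the group means by -0.0378, 0.0548 and 0.0899, and not every library correlated best with its own number. As the means are of 3 libraries each, these correlations cannot exclude pairs. With the replicate block 19 genes passed, 15 of them shared with the fit without it, with 13 higher and 3 lower at 2-fold. Ces1d, Sult1a1, Sult5a1 and Ugt1a10 gained a call, and Ugt1a6a and Ugt1a6b lost theirs. Depth limits most the genes under 60 reads.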
